A study of Bos taurus with 31 samples.

Results

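HIF1A (ENSBTAG00000020935) and VEGFA (ENSBTAG00000005339) were followed in the liver of 31 bovine fetuses, as 2 of the 27607 genes in the count table. They were chosen by identifier as the hypoxia regulator and the angiogenic factor, and both were present in the table and had enough counts to be tested. The table gives identifiers without names, and the supplied gene table holds no Ensembl identifier, so the symbols are those given with the choice of genes and could not be checked. Transcript lengths were not at hand either, so the level of one gene is not compared with that of the other.

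HIF1A encodes the oxygen-regulated subunit of the transcription factor HIF-1. In oxygen-rich cells prolyl hydroxylases mark its protein, and the von Hippel-Lindau ubiquitin ligase then sends it for degradation; in low oxygen the protein persists, pairs with ARNT and activates genes for glycolysis, erythropoiesis and vessel growth. VEGFA, a secreted growth factor for endothelial cells that acts mainly through the receptor KDR, is a well-known target of this factor, and the sinusoids of the growing liver depend on it. Because oxygen acts on HIF1A mostly through the stability of its protein, the RNA level is not a measure of HIF-1 activity.

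All fetuses were female, shared a sire, came from separate Angus-cross heifers on the same basal ration, and were collected on day 83 of gestation. NoVTM_LG dams received no vitamin and mineral premix and were fed for a low gain of 0.28 kg per day (8 fetuses). VTM_LG dams had the same target gain and received 0.45 kg per day of ground corn with the premix from before breeding onward (8 fetuses). NoVTM_MG dams received no premix and, from breeding, a starch-based feed rich in energy and protein that aimed at 0.79 kg per day, called moderate gain (8 fetuses), and VTM_MG dams received both (7 fetuses). The labels do not say whether NoVTM dams received the corn without the premix, and they give no breeding group or sequencing batch per fetus, so those could not be entered in a model. Whole liver was sequenced, so fewer cells of a type and less RNA per cell cannot be told apart. The tissue could not be checked against liver markers, since those were known only by symbol.

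Libraries held 13062894 to 18458776 counts. On the first principal component of all other tested genes, VTM_LG replicate 4 (63.0) and VTM_LG replicate 7 (37.9) stood apart from the remaining libraries, the nearest of which was at 6.69. Values that moved by more than 1.5 times without these libraries are given both ways.

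HIF1A was nearly level across the 4 groups. In NoVTM_LG it ranged from 46.6 to 55.0 CPM (counts scaled to the usual per-library CPM total after TMM adjustment), with a median of 51.6. In VTM_LG it ranged from 43.3 to 53.2 CPM with a median of 49.6, in NoVTM_MG from 47.3 to 56.1 with a median of 51.2, and in VTM_MG from 48.3 to 58.9 with a median of 49.9. The lowest 2 values of the study, 43.3 and 46.0 CPM, were those of VTM_LG replicates 7 and 4, the libraries that stood apart. The highest, 58.9 CPM, was VTM_MG replicate 7. All groups overlapped. By mean, the order was NoVTM_MG (51.4 ± 3.27 CPM, SD, n = 8), NoVTM_LG (51.2 ± 2.59, n = 8), VTM_MG (51.1 ± 3.67, n = 7) and VTM_LG (49.0 ± 3.05, n = 8). The distance from the highest to the lowest group mean, 2.39 CPM, was smaller than the SD between single fetuses within groups, 3.15 CPM. That comparison is a description and not a test of the means, and the tests are given below.

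VEGFA varied more, and its means were lower in the moderate-gain groups. In NoVTM_LG it ranged from 57.1 to 75.5 CPM with a median of 69.3, and in VTM_LG from 61.5 to 81.5 with a median of 68.1. In NoVTM_MG it ranged from 57.0 to 68.9 CPM with a median of 62.3, and in VTM_MG from 58.7 to 73.0 with a median of 64.2. All 8 NoVTM_MG fetuses lay below the NoVTM_LG median, and 5 of 7 VTM_MG fetuses lay below the VTM_LG median, but the ranges overlapped in both pairs. The highest value, 81.5 CPM, was VTM_LG replicate 8. By mean, the order was VTM_LG (69.1 ± 6.10 CPM, SD, n = 8), NoVTM_LG (68.2 ± 6.17, n = 8), VTM_MG (65.1 ± 5.49, n = 7) and NoVTM_MG (62.6 ± 4.89, n = 8). Each step in this order was smaller than the SD within groups, 5.69 CPM, while its whole span was 6.48 CPM, which again is a description and not a test.

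**Figure D1:**
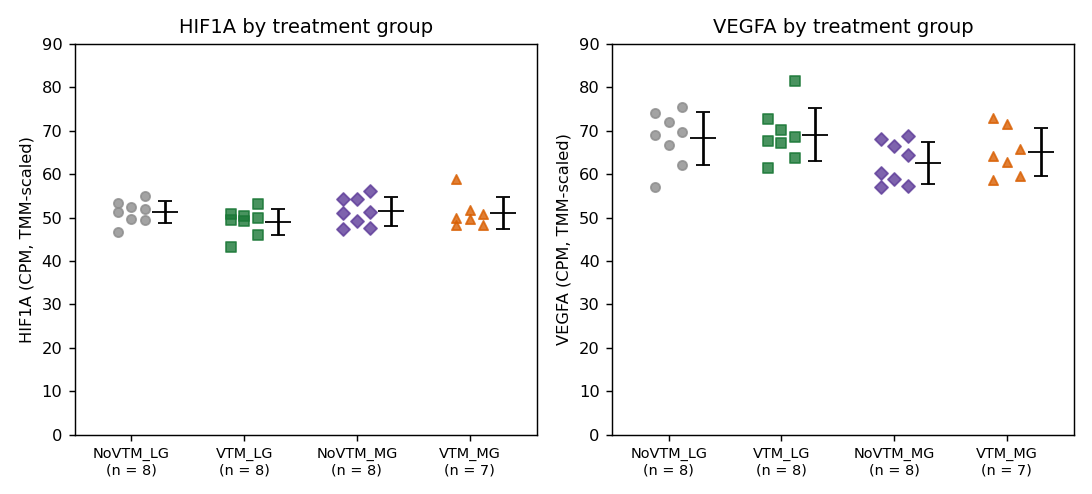
HIF1A (left) and VEGFA (right) in each fetus, in CPM after TMM scaling, by treatment group; the black marks give the group mean and SD. HIF1A means lie between 49.0 and 51.4 CPM, VEGFA means between 62.6 and 69.1 CPM, and all groups overlap.

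The first question was whether maternal gain altered either gene. Averaged over supplementation, VEGFA was 63.8 ± 5.14 CPM in MG (SD, n = 15) and 68.7 ± 5.95 in LG (SD, n = 16), and 12 of 15 MG fetuses lay below the LG median. The edgeR quasi-likelihood test put this difference at 7.04% (log2 fold change -0.11, SE 0.046, 95% interval -0.20 to -0.012). It did not pass after Benjamini-Hochberg adjustment over all 14228 tested genes (unadjusted p = 0.0282, adjusted p = 0.624 in edgeR). An unadjusted p under 0.05 was reached by 7.82% of all genes in this contrast and an adjusted one by 0.0211%, which sets the background for 1 of the 2 genes reaching the first and 0 the second. HIF1A was 51.3 ± 3.34 CPM in MG and 50.1 ± 2.96 in LG, and 7 of 15 MG fetuses lay below the LG median. Its log2 fold change was 0.032 (SE 0.0372, adjusted p = 0.826 in edgeR), and its 95% interval allowed a change of between -2.97% and 7.76%. The HIF1A value was 0.011 without VTM_LG replicates 4 and 7, and 0.014 without VTM_MG replicate 7, the fetus with the highest HIF1A.

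The VEGFA difference had the same sign at both levels of supplementation. Without the premix (NoVTM_MG vs NoVTM_LG) its log2 fold change was -0.12 (SE 0.0639, unadjusted p = 0.0612 and adjusted p = 0.9997 in edgeR). With the premix (VTM_MG vs VTM_LG) it was -0.087 (SE 0.0661, adjusted p = 0.539 in edgeR), and -0.042 without VTM_LG replicate 8, the fetus with the highest VEGFA. The interaction, which asks whether the effect of gain depended on the premix, was 0.037 on the log2 scale (SE 0.0919, 95% interval -0.15 to 0.22, adjusted p = 0.902 in edgeR). HIF1A had log2 fold changes for gain of 0.0046 (SE 0.0517) without and 0.060 (SE 0.0536) with the premix, and an interaction of 0.055 (SE 0.0744, adjusted p = 0.800 in edgeR). Without VTM_LG replicates 4 and 7 the HIF1A value with the premix was 0.017 and the interaction 0.013, and without VTM_MG replicate 7 they were 0.022 and 0.018. The VEGFA interaction was 0.022 without the same 2 VTM_LG libraries. An unadjusted p under 0.05 was reached by 4.59% of all genes without the premix, 14.8% with it and 10.7% for the interaction, and an adjusted one by 0% in each.

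Over all 31 libraries, the VEGFA difference for gain rested on no single fetus for its direction. It lay between -0.12 and -0.083 on the log2 scale when each was left out, and was smallest without VTM_LG replicate 8 (unadjusted p = 0.0675 in edgeR). It was -0.11 (unadjusted p = 0.0237) without VTM_LG replicates 4 and 7 together, and -0.13 (unadjusted p = 0.00534) when the first principal component entered the fit. The adjusted p in edgeR was 0.932 and 0.689 in those fits. With no scaling factor the VEGFA difference was -0.11 (SE 0.0585, unadjusted p = 0.0801, adjusted p = 0.752 in edgeR).

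The second question was whether the premix altered either gene, and neither difference passed the adjustment over all tested genes. Averaged over gain, HIF1A was 50.0 ± 3.41 CPM in VTM (SD, n = 15) and 51.3 ± 2.85 in NoVTM (SD, n = 16). The log2 fold change was -0.036 (SE 0.0372) and its adjusted p was 0.9996 in edgeR. For HIF1A 12 of 15 VTM fetuses lay below the NoVTM median. VEGFA was 67.2 ± 5.99 CPM in VTM and 65.4 ± 6.11 in NoVTM, and 7 of 15 VTM fetuses lay below the NoVTM median. Its log2 fold change was 0.037 (SE 0.0459, unadjusted p = 0.426, adjusted p = 0.9996 in edgeR). At low gain (VTM_LG vs NoVTM_LG) the log2 fold changes were -0.064 (SE 0.0518) for HIF1A and 0.019 (SE 0.0638) for VEGFA, and at moderate gain (VTM_MG vs NoVTM_MG) they were -0.0087 (SE 0.0535) and 0.055 (SE 0.0661). Without VTM_LG replicates 4 and 7 the low-gain values were -0.022 for HIF1A and 0.033 for VEGFA, and the averaged HIF1A value was -0.015. Without VTM_LG replicate 7 alone, HIF1A was -0.040 at low gain and -0.024 on average. Without VTM_MG replicate 7 it was -0.046 at moderate gain and -0.055 on average. An unadjusted p under 0.05 was reached by 2.9% of all genes for the averaged contrast, 8.25% at low gain and 4.57% at moderate gain, by neither member in any of them, and an adjusted one by 0%.

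In the remaining pairs both factors differed. VEGFA was 10.4% higher in VTM_LG than in NoVTM_MG (log2 fold change 0.14, SE 0.0639, 95% interval 0.013 to 0.27), the largest of its pairwise differences, and 7 of 8 VTM_LG fetuses lay above the NoVTM_MG median. This too did not pass the adjustment (unadjusted p = 0.0326, adjusted p = 0.536 in edgeR), where 8.94% of all genes had an unadjusted p under 0.05 and 0% an adjusted one. Without VTM_LG replicate 8 the log2 fold change was 0.099 (unadjusted p = 0.122 in edgeR). In VTM_MG against NoVTM_LG, fetuses with both supplements against neither, the log2 fold change was -0.068 (SE 0.0661) for VEGFA and -0.0041 (SE 0.0535) for HIF1A, with 2.85% of all genes at an unadjusted p under 0.05 and 0% at an adjusted one. HIF1A was at -0.041 in that pair without VTM_MG replicate 7. In VTM_LG against NoVTM_MG it had a log2 fold change of -0.068 (SE 0.0518), which was -0.026 without VTM_LG replicates 4 and 7 and -0.044 without replicate 7 alone. These contrasts share groups with those above and are not independent of them.

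**Figure D2:**
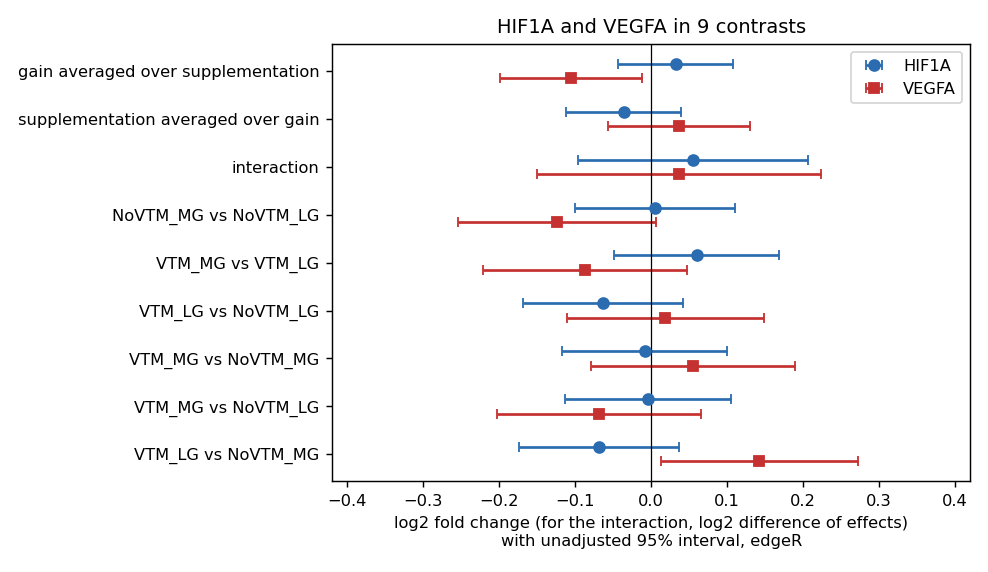
Log2 fold changes of HIF1A (circles) and VEGFA (squares) in the 9 contrasts, with unadjusted 95% intervals from edgeR; the interaction is a difference of log2 effects. The VEGFA intervals for gain averaged over supplementation and for VTM_LG vs NoVTM_MG leave out 0, and no HIF1A interval does.

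Both genes varied little between fetuses of a group. In group-centred log2 CPM the SD of HIF1A was 0.089, and 1.38% of the 14228 tested genes had a smaller one. For VEGFA the SD was 0.12, with 9.77% of genes smaller, against a median over all genes of 0.22. HIF1A was covered by 598 to 846 counts per library and VEGFA by 775 to 1172. Counting error alone would give a coefficient of variation of 3.67% for HIF1A and 3.22% for VEGFA, against 6.22% and 8.59% observed between fetuses of a group. With counting error taken out, 5.02% remained for HIF1A and 7.96% for VEGFA. The biological coefficient of variation fitted by edgeR was above that part, at 7.08% for HIF1A and 8.93% for VEGFA. It was below the fitted trend at their abundance (12.7% and 12.5%).

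The third question was whether fetuses with more HIF1A RNA also had more VEGFA RNA. Over all 31 fetuses, with each TMM-scaled value centred on its group mean, they did not covary detectably. Pearson's r was 0.10 (permutation p = 0.600, adjusted p = 0.733) and Spearman's rho 0.13 (permutation p = 0.499, adjusted p = 0.551), the adjustment covering the 11 relations computed. Without the 2 fetuses farthest from the median HIF1A value, r was 0.32 (permutation p = 0.11). With library totals alone and no scaling factor, r over all fetuses was 0.51 (permutation p = 0.00576), so this call depends on the scaling. As a description of the background, in TMM-scaled values 36.0% of all other tested genes had a higher r with HIF1A than VEGFA did. No such background was computed without a scaling factor, so the r of 0.51 cannot be placed among all genes.

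Within the groups the relation took different signs. It was positive in NoVTM_LG (r = 0.54, rho = 0.50, n = 8, exact permutation p = 0.173 and 0.216) and in NoVTM_MG (r = 0.61, rho = 0.57, n = 8, exact permutation p = 0.115 and 0.151). In NoVTM_MG r was 0.93 without replicate 8 (n = 7, exact permutation p = 0.00337), a fetus with 54.4 CPM of HIF1A and 57.2 CPM of VEGFA. With any other fetus of that group left out, r lay between 0.48 and 0.66 (exact permutation p between 0.116 and 0.264). Without the 2 NoVTM_MG fetuses farthest from the median HIF1A value r was 0.31 (exact permutation p = 0.526). In VTM_LG it was near 0 (r = -0.013, rho = -0.29, n = 8, exact permutation p = 0.976 and 0.501), and r was 0.038 with RLE factors, 0.52 with no scaling factor and between -0.18 and 0.085 when each fetus was left out. In VTM_MG it was negative (r = -0.70, n = 7, exact permutation p = 0.0498, adjusted p = 0.183), and more so by rank (rho = -0.93, exact permutation p = 0.00675, adjusted p = 0.0371). The 11 relations of this adjustment include those of each gene with the TMM factor, which were added after seeing the data. With those left out, the adjustment would put this rho above the threshold of 0.05. The VTM_MG fetus with the highest HIF1A, replicate 7 at 58.9 CPM, had the lowest VEGFA, 58.7 CPM, and the fetus with the lowest HIF1A, replicate 6 at 48.3 CPM, had the highest VEGFA, 73.0 CPM. In VTM_MG rho was -0.89 without replicate 7 (n = 6, exact permutation p = 0.0333), r was -0.66 (exact permutation p = 0.149), and without the 2 fetuses farthest from the median HIF1A value r was -0.64 (exact permutation p = 0.242).

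The difference between the levels of supplementation was then tested, a test chosen after seeing these values. The group-centred r was 0.56 over the 16 NoVTM fetuses and -0.34 over the 15 VTM fetuses, a difference of 0.90 (two-sided permutation p = 0.0111, with supplementation permuted within each level of gain). Neither this difference nor the VTM_MG rho was compared with values for other genes, so neither is shown to be particular to this pair. With each library left out in turn the difference lay between 0.71 and 1.04, with a permutation p of 0.00219 to 0.0311. Without VTM_LG replicates 4 and 7 it was 1.11 (permutation p = 0.00541), with r = -0.54 over the remaining VTM fetuses. Without VTM_MG replicate 7 the VTM r was -0.145 and the difference 0.71 (permutation p = 0.0199). The difference depended on the scaling. With RLE factors it was 0.84 (permutation p = 0.0165), but with library totals and no scaling factor it was 0.37 (r = 0.73 and 0.35, permutation p = 0.233). In VTM_MG the relation without a scaling factor was r = 0.11 and rho = 0.32 (n = 7, exact permutation p = 0.827 and 0.498), so its negative sign was present only with TMM or RLE factors.

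**Figure D3:**
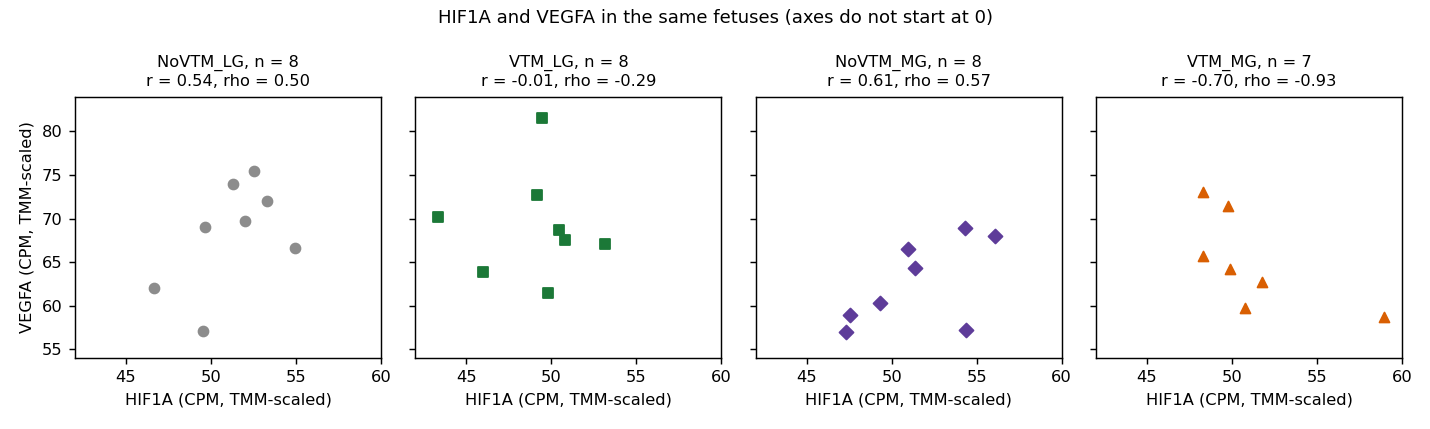
VEGFA against HIF1A in the same fetus, both in CPM after TMM scaling, 1 panel per group; r and rho were computed on log2 CPM. The points rise together in the NoVTM panels (r = 0.54 and 0.61) and fall from left to right in VTM_MG (r = -0.70).

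VEGFA, unlike HIF1A, moved with the TMM factor of the library, a measure of composition that divides the CPM values. This relation was also chosen after seeing the data. The share of all genes with as high an r with the factor is not given, so the relation is not shown to be particular to VEGFA. Group-centred r was 0.59 for VEGFA (permutation p = 0.00113, adjusted p = 0.0124) and rho 0.53 (adjusted p = 0.0371), so VEGFA was higher where the factor was higher. Without the 2 libraries with the most distant factors r was 0.45 (permutation p = 0.0218). For HIF1A r was 0.055 (permutation p = 0.787) and rho 0.088. The mean factor was 0.997 ± 0.0355 for NoVTM_LG, 1.01 ± 0.0455 for VTM_LG, 0.992 ± 0.0326 for NoVTM_MG and 1.01 ± 0.0510 for VTM_MG (SD). With the factor as a covariate the VEGFA difference for gain was -0.10 on the log2 scale (unadjusted p = 0.0105, adjusted p = 0.403 in edgeR), and the correlation of the pair over all fetuses was 0.087.

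**Figure D4:**
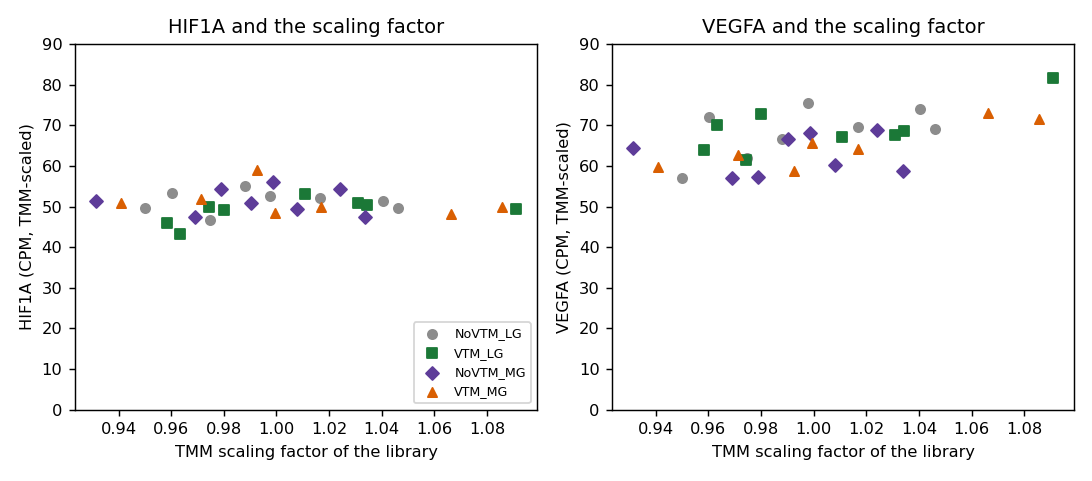
HIF1A (left) and VEGFA (right) in CPM after TMM scaling against the TMM factor of the library, 1 point per fetus, marked by group. VEGFA rises with the factor (group-centred r = 0.59), and HIF1A does not show such a slope (r = 0.055).

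None of the relations with other library measures passed the adjustment over the 11 relations. With the first principal component r was -0.36 for HIF1A (permutation p = 0.0667, adjusted p = 0.183) and 0.028 without the 2 most distant libraries, so it rested on those. For VEGFA it was -0.37 (permutation p = 0.0464, adjusted p = 0.183) and -0.56 without them (permutation p = 0.00368). Spearman's rho was -0.32 and -0.37. With the log2 total count r was -0.26 for HIF1A and -0.24 for VEGFA (permutation p = 0.190 and 0.200), and rho was -0.13 and -0.17. Their part in the group differences was not tested beyond the fits given above.

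The ratio of VEGFA to HIF1A counts in the same library needs no scaling factor and is given as a description, without a test; its absolute size also reflects transcript length. It ranged from 1.15 to 1.44 in NoVTM_LG (median 1.35), from 1.23 to 1.65 in VTM_LG (median 1.37), from 1.05 to 1.31 in NoVTM_MG (median 1.23) and from 0.995 to 1.51 in VTM_MG (median 1.29). The log2 ratio was 0.45 ± 0.14 in LG (SD, n = 16) and 0.31 ± 0.15 in MG (SD, n = 15), and the groups overlapped. VTM_MG replicate 7 was the only library with fewer VEGFA than HIF1A counts, 826 against 830.

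**Figure D5:**
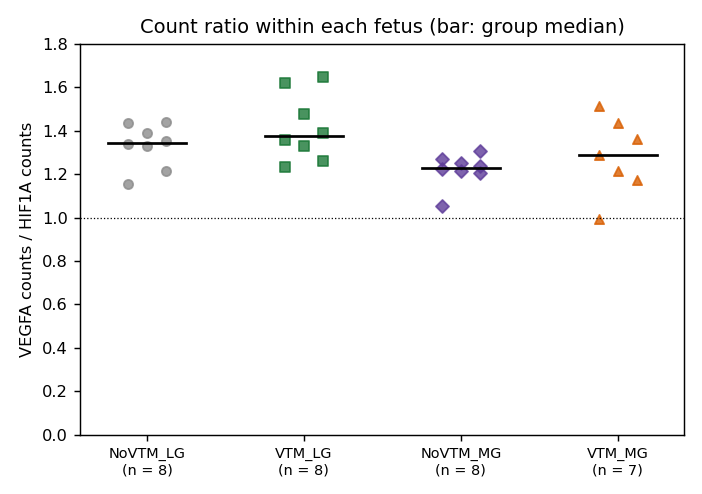
VEGFA counts divided by HIF1A counts in each library, by treatment group; bars mark group medians and the dotted line a ratio of 1. Medians are 1.35 and 1.37 in the low-gain groups and 1.23 and 1.29 in the moderate-gain groups.

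The genes most like each member over the 31 fetuses were different ones for HIF1A and for VEGFA. In group-centred log2 CPM, the highest Pearson r with HIF1A belonged to ENSBTAG00000044053 (0.71) and ENSBTAG00000016900 (0.71), whose r with VEGFA was 0.014 and 0.063. The highest r with VEGFA belonged to ENSBTAG00000045895 (0.71) and ENSBTAG00000052481 (0.70), whose r with HIF1A was 0.10 and 0.24. Without VTM_LG replicates 4 and 7 the 4 values lay between 0.69 and 0.71. The genes were picked as the highest among the other tested genes with a mean of at least 1 CPM and are a description only.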

How the data were processed

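The deposited table holds raw counts per Ensembl gene identifier, whole numbers that the authors had not normalized. Libraries were strand-specific with paired reads, per the labels' protocols. The submitters' processing notes name CASAVA, FastQC 0.11.8, MultiQC 1.9, STAR 2.7.3a and edgeR without their roles; none of the sources used here gives the genome build, annotation, counting program or use of strand, so neither coordinates nor sequences are given. Columns were matched to samples by title and groups taken from the treatment label; replicate numbers are names only.

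From these counts, filterByExpr with the 4 groups kept genes (minimum count 10, minimum total 15; 14228 of 27607 genes), scaled by TMM and tested with edgeR 4.0.16 in R 4.3.3 (quasi-likelihood F test, 1 mean per group, all 31 libraries, 9 contrasts, Benjamini-Hochberg adjustment over all tested genes, threshold 0.05). The procedure was tested on simulated data. Standard errors came from the fold change and its F statistic. Correlations used log2 CPM (prior count 2) centred on group means, with two-sided permutation p-values from 100000 resamples within groups, or all orders within a single group. Intervals and p-values measure the spread between fetuses, and counting errors cover counting only. The members, the gene lists and the tests were chosen with earlier results of these data known. Named genes are both members in every contrast and, for each, the 2 others with at least 1 CPM that correlate most with it. Lists of 33 hypoxia and VEGF genes and of 18 cell type markers, chosen by symbol, could not be run because 0 of the 37063 genes in the supplied table carry an Ensembl identifier. Alternatives were RLE scaling, other filters, DESeq2 1.42.0, limma 3.58.1 voom, fits of the compared groups alone, a principal component covariate, a robust fit and leaving libraries out; fits with no scaling factor and with the TMM factor as a covariate were chosen after seeing the data.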

Additional observations from a re-analysis of the deposited data

Results flagged for a closer look

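HIF1A in VTM_MG replicate 7, at 58.9 CPM, lay far above the other 6 fetuses of its group, the next of which was at 51.7 CPM. The log2 ratio of VEGFA to HIF1A in NoVTM_MG replicate 8, at 0.0745, lay far below the next fetus of its group, at 0.267. Both were found by Dixon's criterion in 12 group checks, of which chance marks about 1 in 20. The difference in the group-centred correlation of HIF1A with VEGFA between NoVTM and VTM, 0.897, differed between the levels of supplementation by permutation (p = 0.0111), in a test chosen after seeing the pattern in the same data. With no scaling factor it was 0.373 (permutation p = 0.233), with r positive at both levels (0.73 and 0.35). The difference was not compared with that of other genes.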

How the results depend on the processing

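Neither gene passed the adjusted threshold in any contrast under any setting tried. HIF1A differences near 0 changed sign. With limma voom they were -0.0040 for NoVTM_MG vs NoVTM_LG, 0.0087 for VTM_MG vs NoVTM_MG and 0.0047 for VTM_MG vs NoVTM_LG, and with no scaling factor -0.0027, 0.017 and 0.014. Leaving out 1 library moved them between -0.014 and 0.021, -0.046 and 0.012, and -0.041 and 0.011. For VEGFA, leaving out 1 library moved VTM_LG vs NoVTM_LG between -0.026 and 0.042, and entering the first principal component turned the interaction to -0.029. The correlation of the pair was 0.508 with no scaling factor (permutation p = 0.00576), -0.0078 with values not centred on group means and -0.037 once centred on the first principal component; leaving out 1 library gave 0.037 to 0.26. The cause was not tested. The other group contrasts kept their direction under all settings run. Of 41 settings, 31 of them fits with 1 library left out, VEGFA for gain had an unadjusted p under 0.05 in 36. With no scaling factor it did not (unadjusted p = 0.0801 in edgeR). Over all genes, 3 passed for gain in edgeR, 9 in DESeq2 and 5 in limma voom, and 0 to 7 with 1 library left out. For supplementation these counts were 0, 3, 2 and 0 to 3, for NoVTM_MG vs NoVTM_LG 0, 9, 2 and 0 to 7, for VTM_MG vs VTM_LG 0, 1, 0 and 0 to 23, and for VTM_LG vs NoVTM_MG 0, 6, 0 and 0 to 2. In VTM_MG vs NoVTM_LG DESeq2 called 1. A paired analysis did not apply, because each fetus came from a separate heifer in 1 treatment group and the labels name no pairs. With 598 to 1172 counts per library, counting error was 3.67% for HIF1A and 3.22% for VEGFA.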
